A study of Macaca mulatta with 8 samples.

Results

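The proteasome genes were taken as every gene of the table whose symbol begins with PSMA, PSMB, PSMC, PSMD, PSME, PSMF or PSMG, which gave 45 of 16429 genes. Of these, 29 encode constitutive subunits of the 20S core or the 19S cap, 5 are the immunoproteasome genes PSMB8, PSMB9, PSMB10, PSME1 and PSME2, and 11 are other members, namely assembly chaperones, other activators, an inhibitor and PSMC3IP. PSMC3IP is a recombination factor that shares only its name with the complex, and it was left out of the constitutive and immunoproteasome sums. PSMA8, PSMB7, PSMB11 and PSMC6 were not found by symbol and are not analysed here.

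The proteasome is the complex that degrades ubiquitin-tagged proteins. Its barrel-shaped 20S core holds the cutting sites on beta subunits, and the 19S cap binds tagged proteins, unfolds them with a ring of ATPases and feeds them into the core. Lymphocytes, and other cells exposed to interferon gamma, replace the catalytic subunits PSMB5, PSMB6 and PSMB7 by PSMB8, PSMB9 and PSMB10. They also make more PSME1 and PSME2, which form the PA28 activator, and the resulting immunoproteasome favours peptides that fit MHC class I molecules.

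The series followed regulatory T cells (Tregs), which hold other immune cells in check, after their transfer into rhesus macaques. Blood mononuclear cells frozen on day 20 and day 3 were thawed, enriched for CD4-positive cells, sorted and sequenced with the droplet-based 10x 3′ chemistry, version 2. The CFSE-positive sort, which carries a division dye, was read as the transferred cells because of the title of the series. It is compared with 3 other sorts of the same blood fraction. The first is CD25high CD127low, the surface phenotype of the animal's own Tregs. The other 2 are CD127-positive and either CD25-positive or CD25-negative, and the last has the phenotype of conventional CD4 cells. Each sort gave 1 library on each day. The labels give neither the animals, their age, the treatment nor the number of animals behind a library.

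The 8 libraries held 1149 to 4751 cells and 2992787 to 12149559 unique molecular identifiers (UMIs, counted RNA molecules), with medians of 2131 to 3095 UMIs per cell. A population had 1 library per day, and no test was run. Every interval below is a 95% interval for counting error only. Levels are given as CPM, the UMIs of a gene per 1000000 UMIs of its library. FOXP3, the defining Treg transcription factor, was at 127 CPM in CFSE-positive, 67.8 in CD25high CD127low, 16.9 in CD127-positive CD25-positive and 0.25 in CD127-positive CD25-negative cells on day 20, and at 259, 76.0, 17.3 and 0.53 CPM in the same order of sorts on day 3. CD3D, a subunit of the T cell receptor complex, was at 1174 to 2273 CPM in the 8 libraries, while CD4 itself was at only 3.47 to 7.29 CPM. Barcodes shared with another library were carried by 767 of 25397 cells.

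All 29 constitutive subunits were detected at 20 CPM or more in at least 1 library, as were all 5 immunoproteasome genes and 8 of the 11 other members. The exceptions were PSMC3IP, the chaperone PSMD5 and the activator PSME4. Of all 45 members, 35 had their highest level in CFSE-positive cells on day 3 and 26 their lowest in CD127-positive CD25-negative cells on day 3. The ratio of a member's highest to its lowest library had a median of 1.80 and ranged between 1.21 and 2.44 over the 42 members that reached 20 CPM. All 45 members together, PSMC3IP included, took 0.557% of UMIs in CFSE-positive, 0.543% in CD25high CD127low, 0.565% in CD127-positive CD25-positive and 0.514% in CD127-positive CD25-negative cells on day 20. On day 3 they took 0.742% in CFSE-positive, 0.575% in CD25high CD127low, 0.498% in CD127-positive CD25-positive and 0.458% in CD127-positive CD25-negative cells. The 4 sorts were thus close together on day 20 and spread apart on day 3, with the transferred cells at the top.

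The 29 constitutive subunits together were highest in the transferred cells on day 3. Their summed level on day 20 was 3486 CPM (3419 to 3554) in CFSE-positive, 3205 CPM (3162 to 3249) in CD25high CD127low, 3290 CPM (3255 to 3325) in CD127-positive CD25-positive and 2951 CPM (2914 to 2989) in CD127-positive CD25-negative cells. On day 3 it was 5022 CPM (4982 to 5062) in CFSE-positive, 3479 CPM (3444 to 3514) in CD25high CD127low, 2927 CPM (2892 to 2963) in CD127-positive CD25-positive and 2705 CPM (2668 to 2742) in CD127-positive CD25-negative cells. The 7 libraries other than the day 3 CFSE-positive one lay within a narrow band by comparison. The 5 immunoproteasome genes did not share this order. Their sum on day 20 was 1714 CPM in CFSE-positive, 1847 in CD25high CD127low, 1965 in CD127-positive CD25-positive and 1830 in CD127-positive CD25-negative cells, and on day 3 it was 1913, 1907, 1719 and 1550 CPM in the same order of sorts. On day 20 the transferred cells had the lowest sum of the 4 sorts, and on day 3 they could not be told apart from CD25high CD127low cells by counting error.

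**Figure D1:**
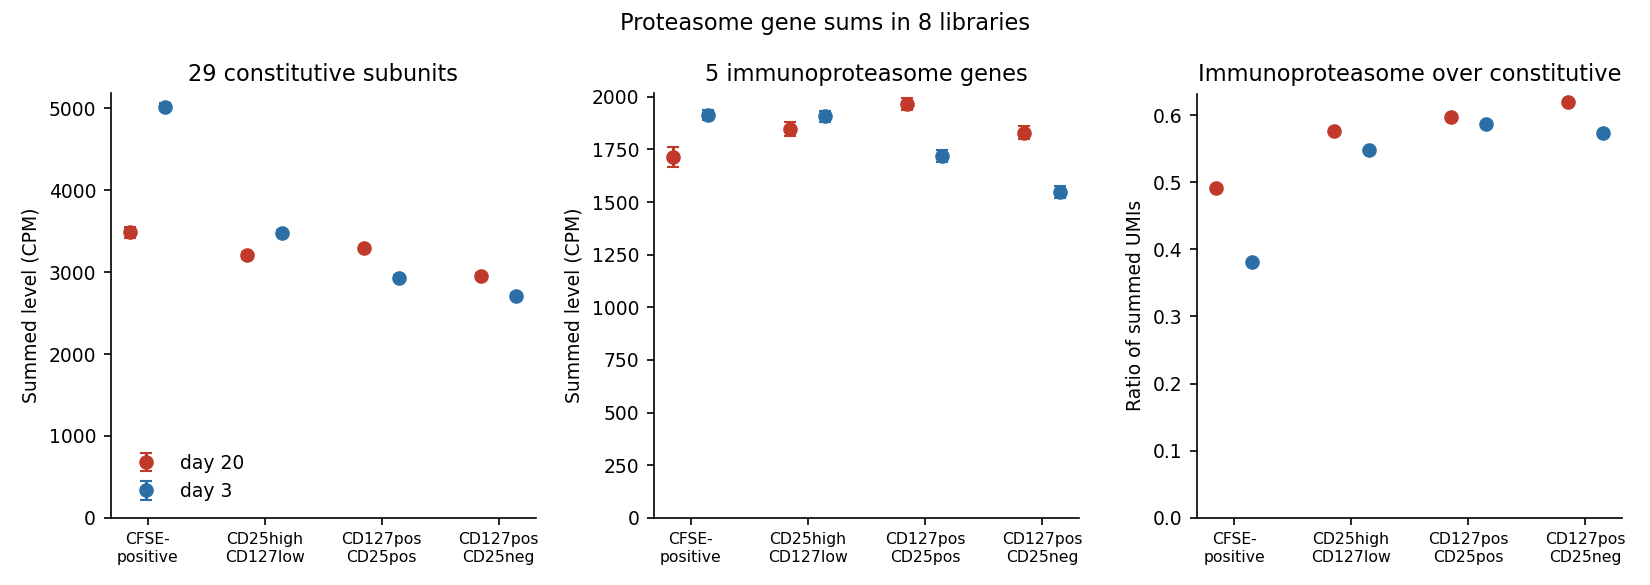
Summed level (CPM) of the 29 constitutive subunits on the left and of the 5 immunoproteasome genes in the middle, and the ratio of their summed UMIs on the right, in the 4 sorted populations on day 20 (red) and day 3 (blue). Points are 1 library each, bars are 95% counting intervals, and the CFSE-positive library of day 3 has the highest constitutive sum, 5022 CPM, and the lowest ratio, 0.38.

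The immunoproteasome genes were therefore lowest relative to the constitutive subunits in the transferred cells on both days. The ratio of immunoproteasome to constitutive UMIs on day 20 was 0.49 in CFSE-positive, 0.58 in CD25high CD127low, 0.60 in CD127-positive CD25-positive and 0.62 in CD127-positive CD25-negative cells. On day 3 it was 0.38, 0.55, 0.59 and 0.57 in the same order of sorts. Since capture at the 3′ end can differ between genes, the ratio is read across libraries and not as a stoichiometry. Between CFSE-positive and CD25high CD127low cells the log2 ratio of these ratios was -0.23 (-0.29 to -0.17) on day 20 and -0.53 (-0.56 to -0.49) on day 3. Against CD127-positive CD25-negative cells it was -0.34 (-0.39 to -0.28) on day 20 and -0.59 (-0.63 to -0.55) on day 3. Both comparisons share the CFSE-positive library of their day. Among the sorts that are not CFSE-positive the ratio differed little. Its log2 ratio was -0.11 on day 20 and -0.06 on day 3 for CD25high CD127low over CD127-positive CD25-negative cells, and -0.05 on day 20 and 0.04 (-0.01 to 0.08) on day 3 for the comparison of CD25-positive with CD25-negative among CD127-positive cells. This ratio does not depend on how libraries are scaled, but its size on day 3 shrank when the most abundant member of each group was left out. These were PSME1 and PSMA7. On day 3 PSME1 was at 656 CPM in CFSE-positive against 840 CPM in CD25high CD127low cells. PSMA7 was at 713 against 525 CPM, in the direction of the constitutive sum. Without both genes, the log2 ratio of ratios was -0.21 on day 20 and -0.31 on day 3 between CFSE-positive and CD25high CD127low cells. Between CFSE-positive and CD127-positive CD25-negative cells it was -0.28 on day 20 and -0.29 on day 3, so that the day 20 values moved little.

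The 5 immunoproteasome genes did not move as a unit. PSMB8, the immunoproteasome counterpart of PSMB5, was at 344 CPM in CFSE-positive, 374 in CD25high CD127low, 369 in CD127-positive CD25-positive and 350 in CD127-positive CD25-negative cells on day 20, and at 469, 404, 333 and 296 CPM in the same order of sorts on day 3. PSMB9, the counterpart of PSMB6, was at 385, 369, 389 and 367 CPM on day 20 in that order and at 504, 367, 308 and 284 CPM on day 3. By CPM both were thus close together across the sorts on day 20 and highest in the transferred cells on day 3, as most constitutive subunits were. For PSMB8 this depended on the scaling, since its log2 ratio of CFSE-positive over CD25high CD127low cells on day 3 was 0.22 by CPM, -0.12 with TMM factors and -0.13 with median-of-ratios factors, which are both scalings that set the bulk of the genes equal between libraries. PSMB9 stayed higher, at 0.46 by CPM, 0.12 with TMM and 0.11 with median-of-ratios factors. PSMB10, the counterpart of PSMB7, behaved differently, with 60.8 CPM in CFSE-positive, 91.6 in CD25high CD127low, 83.2 in CD127-positive CD25-positive and 78.4 in CD127-positive CD25-negative cells on day 20, and 65.3, 81.1, 77.1 and 66.0 CPM in the same order on day 3. It was lowest in the transferred cells on day 20, and on day 3 they were level with CD127-positive CD25-negative cells.

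PSME1, the PA28 alpha chain, was at 737 CPM in CFSE-positive, 819 in CD25high CD127low, 895 in CD127-positive CD25-positive and 828 in CD127-positive CD25-negative cells on day 20. On day 3 it was at 656 CPM in CFSE-positive, 840 in CD25high CD127low, 812 in CD127-positive CD25-positive and 726 in CD127-positive CD25-negative cells. PSME1 was lowest in the transferred cells on both days, with counting intervals apart from those of the other 3 sorts. PSME2, the PA28 beta chain, was at 187, 194, 229 and 207 CPM in that order of sorts on day 20 and at 219, 215, 188 and 177 CPM on day 3, with the 2 Treg sorts level with each other by CPM on each day. With TMM factors the log2 ratio of CFSE-positive over CD25high CD127low cells for PSME2 was -0.13 on day 20 and -0.31 on day 3.

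**Figure D2:**
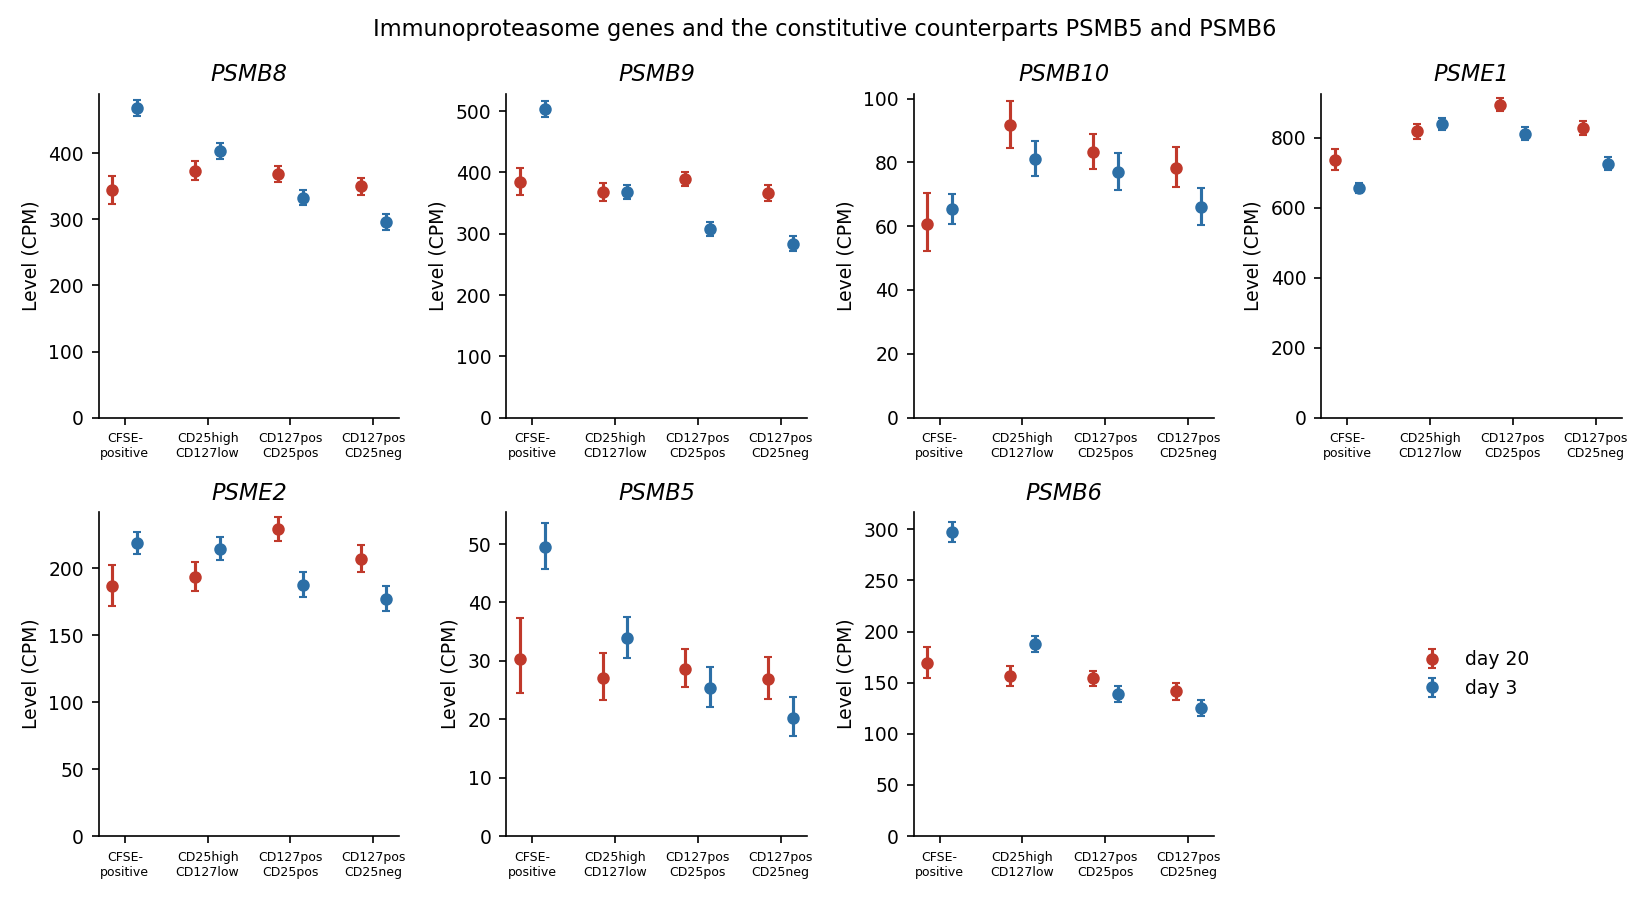
Level (CPM) of the 5 immunoproteasome genes and of PSMB5 and PSMB6, the constitutive counterparts of PSMB8 and PSMB9, in the 4 sorts on day 20 (red) and day 3 (blue). Points are 1 library each with 95% counting intervals. By CPM, PSMB8, PSMB9, PSMB5 and PSMB6 are highest in CFSE-positive cells on day 3, while PSME1 is lowest there, at 656 CPM. For PSMB8 the direction against CD25high CD127low cells turns with TMM factors, at a log2 ratio of -0.12.

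The counterparts PSMB5 and PSMB6 showed the day 3 difference more strongly than the genes that replace them. PSMB6 was at 169 CPM in CFSE-positive, 156 in CD25high CD127low, 154 in CD127-positive CD25-positive and 142 in CD127-positive CD25-negative cells on day 20, and at 298, 188, 139 and 125 CPM in the same order on day 3. PSMB5 was at 30.4, 27.1, 28.6 and 26.9 CPM on day 20 and at 49.5, 33.9, 25.4 and 20.3 CPM on day 3. Of the UMIs of PSMB8, PSMB9, PSMB10, PSMB5 and PSMB6 together, the immunoproteasome genes took 79.8% (78.3 to 81.3) in CFSE-positive, 82.0% (81.0 to 82.9) in CD25high CD127low, 82.1% (81.4 to 82.9) in CD127-positive CD25-positive and 82.5% (81.7 to 83.4) in CD127-positive CD25-negative cells on day 20. On day 3 they took 74.9% (74.3 to 75.6), 79.4% (78.6 to 80.1), 81.4% (80.5 to 82.2) and 81.6% (80.6 to 82.6) in the same order. The intervals are exact binomial (Clopper-Pearson) intervals. Within the PSMB9 and PSMB6 pair, PSMB9 took 69.5% in CFSE-positive and 70.2% in CD25high CD127low cells on day 20, and 62.9% (61.9 to 63.8) in CFSE-positive and 66.2% (65.0 to 67.4) in CD25high CD127low cells on day 3. Within the PSMB8 and PSMB5 pair, PSMB8 took 91.9% in CFSE-positive and 93.3% in CD25high CD127low cells on day 20, and 90.4% and 92.2% in the same order on day 3. On day 3 the share of the immunoproteasome gene was thus lower in CFSE-positive cells in both pairs.

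Compared gene by gene with CD25high CD127low cells, transferred cells on day 3 had a higher level of 28 of the 29 constitutive subunits, with a median log2 ratio of 0.48 on the log2 scale of CPM plus a pseudocount of 10. The median of all 4147 genes at 20 CPM or more was 0.36 in the same comparison, which is most of that value. A gene is counted as higher where the ratio is at least 1.5-fold. By this rule 7 of 42 members were higher on day 3 and 0 lower, against 21.7% of all genes higher and 4.85% lower, which is not above the background. They were the core subunits PSMA1, PSMA2 and PSMB6, the cap ATPases PSMC4 and PSMC5, the cap subunit PSMD8 and the chaperone PSMD9. On day 20 the median constitutive log2 ratio was 0.11, beside 0.04 for all genes, and 0 of 42 members were higher or lower, against 2.96% of all genes higher and 4.12% lower.

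By role, the day 3 log2 ratios of transferred over CD25high CD127low cells had medians of 0.47 for the 7 alpha subunits that shape the ends of the core, 0.45 for the 6 constitutive beta subunits, 0.56 for the 5 cap ATPases and 0.48 for the 11 other cap subunits. The cap subunit PSMD11 was the only constitutive subunit below 0, at -0.06. Higher on both days were 27 of the 42 members, and ranked by the smaller of the day values the ATPases PSMC5 and PSMC3 came first, with 0.40 on day 20 and 0.61 on day 3 for PSMC5, and 0.36 and 0.56 for PSMC3. PSMC5 had 157 CPM in CFSE-positive against 116 CPM in CD25high CD127low cells on day 20, and 212 against 135 CPM on day 3. They were followed by the cap subunits PSMD7 (0.32 on day 20, 0.50 on day 3), PSMD2 (0.25 and 0.38), which docks ubiquitin-like carriers, and PSMD13 (0.24 and 0.57), and by PSMD9 (0.22 and 0.72), a chaperone of cap assembly. Lower on both days were 4 of the 42 members, PSMB10 (-0.52 on day 20, -0.28 on day 3), PSME1 (-0.15 and -0.35), PSMG2 (-0.35 and -0.19) and PSMG4 (-0.20 and -0.01). PSMG2 and PSMG4 are chaperones of the early core, and their partners PSMG1 and PSMG3 were at -0.12 and -0.10 on day 20 and at 0.29 and 0.23 on day 3, the day 3 values turning to just below 0 for PSMG1 and to -0.055 for PSMG3 with TMM factors.

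Against CD127-positive CD25-negative cells the transferred cells differed more, and by CPM the members stood above the background on day 3, though not with TMM factors. Of 42 members, 29 were at least 1.5-fold higher on day 3 and 0 lower, against 34.5% of 4232 genes higher and 9.24% lower. They comprised all 7 alpha subunits, 5 of 6 constitutive beta subunits, 4 of 5 cap ATPases, 7 of 11 other cap subunits, PSMB8, PSMB9, PSMD9, PSMD10, PSME3 and PSMF1, the last an inhibitor of the core. The median constitutive log2 ratio was 0.74 on day 3, beside 0.43 for all genes, and 0.21 on day 20, beside 0.10. The largest day 3 ratios were those of PSMB6 at 1.19, with 298 CPM in CFSE-positive and 125 CPM in CD127-positive CD25-negative cells, and PSMD8 at 1.15, with 190 and 80.1 CPM. PSMD8 belongs to the lid of the cap. On day 20 no member was 1.5-fold higher or lower, against 5.94% of genes higher and 3.83% lower, and PSMC5 (0.50), PSMA2 (0.40), PSMC3 (0.38), PSMD9 (0.32), PSMD12 (0.31) and PSMB4 (0.29) came first among the 31 members that were higher on both days, ranked by the smaller of the day values. Lower on both days were 3, PSME1 (-0.16 on day 20, -0.14 on day 3), PSMG2 (-0.26 and -0.14) and PSMB10 (-0.32 and -0.01). With TMM factors the all-gene median shifted by -0.12 on day 20 and the constitutive sum became 0.10 on the log2 scale in place of 0.24.

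**Figure D3:**
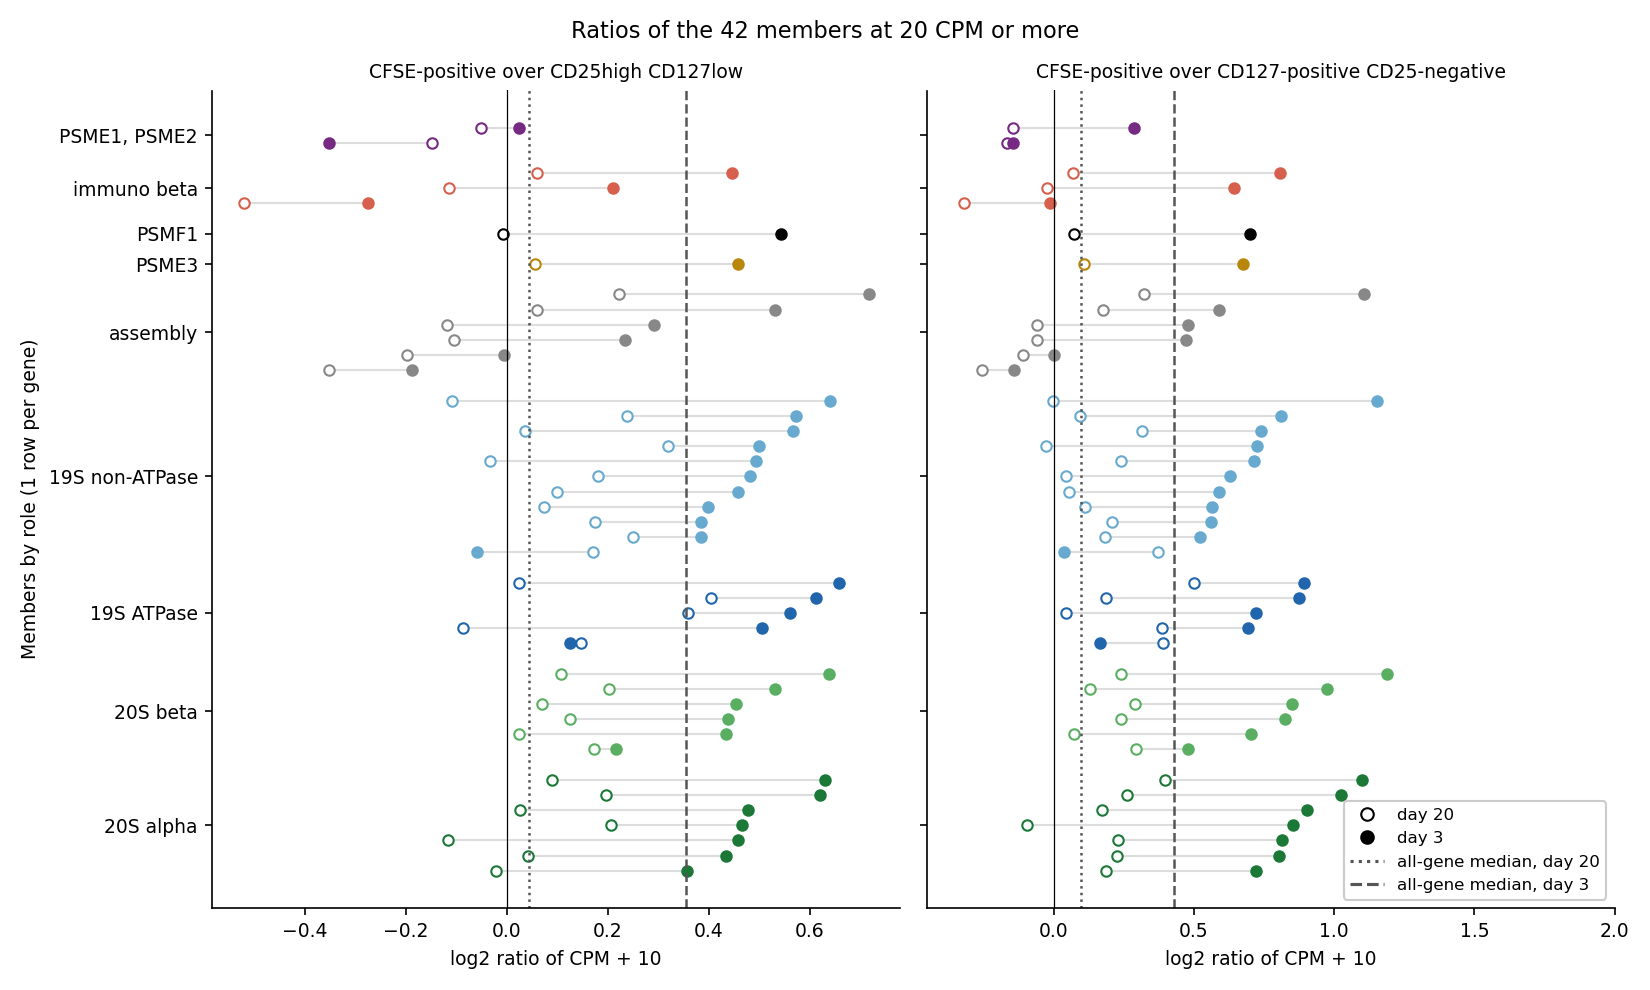
log2 ratio of CPM + 10 for the 42 members that reached 20 CPM, 1 row per gene and grouped by role, for CFSE-positive over CD25high CD127low cells on the left and over CD127-positive CD25-negative cells on the right, on day 20 (open circles) and day 3 (filled circles). Dotted and dashed lines mark the median of all genes tested on day 20 and day 3. On day 3 most core and cap subunits lie to the right of the all-gene median, and PSME1 and PSMB10 lie below 0 in both panels.

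The size of these day 3 differences depended on the scaling. Ribosomal protein genes took 29.4% of UMIs in CFSE-positive cells on day 3, against 36.1 to 39.5% in the other 7 libraries, and the part of this in the result was not tested. With TMM factors the constitutive sum of transferred over CD25high CD127low cells on day 3 was 0.20 on the log2 scale in place of 0.53, the immunoproteasome sum was -0.33 in place of 0.00, and the median of all genes shifted by -0.27. Against CD127-positive CD25-negative cells the constitutive value with TMM factors was 0.53 in place of 0.89, the immunoproteasome value -0.06 in place of 0.30, and 6 in place of 29 of 42 members were at least 1.5-fold higher and 0 lower, against 13.7% of genes higher and 14.5% lower, which is near the background. The direction of the constitutive sums was thus the same, and the direction of the immunoproteasome sum flipped with the scaling. PCNA, a gene of DNA replication, and TUBA1B, a tubulin, were also highest in CFSE-positive cells on day 3, at 96.2 and 438 CPM, against 30.6 to 42.6 and 226 to 293 CPM in the other 7 libraries, while MKI67, the usual marker of dividing cells, was at 8.56 CPM there and 1.35 to 9.57 CPM elsewhere. Monocyte markers (7 of 7 found) summed to 145 CPM in CFSE-positive cells on day 3, against 12.7 to 72.5 CPM in the other 7 libraries. CST3 carried 134 CPM of this, while CD14 was at 4.94 CPM and S100A9 and VCAN were at 0 there. B cell markers (6 of 6 found) summed to 119 CPM there, against 22.0 to 81.6 CPM elsewhere. In CFSE-positive cells on day 3 CD79A was at 55.4 and CD79B at 50.1 CPM, while MS4A1 was at 0.49 CPM. The part of these lists in the result was not tested. Red cell markers (4 of 7 found, HBB and HBA2 carrying the sum) summed to 126 to 147 CPM in the day 20 libraries and 307 to 1560 CPM in the day 3 libraries, and HBB itself stood at 0.12 to 0.67 CPM on day 20. Leaving out 1091 doublet-like cells, red cell marker carriers among them, gave 0.55 for the day 3 constitutive value against CD25high CD127low cells.

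By CPM, transferred cells were the only population whose constitutive level was much lower on day 20 than on day 3. In CFSE-positive cells the log2 ratio of day 20 over day 3 was -0.53 (-0.56 to -0.50) for the constitutive sum and -0.16 for the immunoproteasome sum, so that the ratio of the sums was higher by 0.37 (0.32 to 0.42). Of 42 members, 9 were at least 1.5-fold lower on day 20 and 0 higher, against 13.5% of genes lower and 6.58% higher. These were PSMA1, PSMA2, PSMA4, PSMB6, PSMC4, PSMD3, PSMD8, PSMD9 and PSMD14, the last the deubiquitinating enzyme of the cap. PSMD8 had the largest difference, with 91.6 CPM on day 20 and 190 CPM on day 3. PSMA4, a core alpha subunit, had 135 CPM on day 20 and 247 CPM on day 3. The cap subunits PSMD11 (41.4 CPM on day 20, 32.5 on day 3) and PSMC1 (41.1 and 38.2) did not share the direction. The chaperone PSMG2 and PSME1 were likewise higher on day 20, PSMG2 at 52.1 CPM against 46.9 CPM on day 3. Among the 42 members that reached 20 CPM, PSMG2 was the only one higher on day 20 in all 4 populations. PSME3, a nuclear activator of the core, was the only one of these 42 lower in all 4. PSME3 had 24.7 CPM on day 20 against 41.6 CPM on day 3 in CFSE-positive cells, and was level in CD127-positive CD25-negative cells, at 22.2 and 22.3 CPM. With TMM factors the constitutive value of CFSE-positive cells was -0.37, and the immunoproteasome value was -0.01 with TMM and 0.02 with median-of-ratios factors, so its direction depended on the scaling.

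In the other sorts the day values differed less. The constitutive log2 ratio of day 20 over day 3 was -0.12 in CD25high CD127low, 0.17 in CD127-positive CD25-positive and 0.13 in CD127-positive CD25-negative cells, and the immunoproteasome values were -0.05, 0.19 and 0.24 in the same order. In each of these sorts 0 of 42 members were 1.5-fold higher or lower, against 6.73%, 0.219% and 0.166% of genes higher and 0.563%, 3.36% and 0.497% lower in that order. All 5 immunoproteasome genes had positive ratios in both CD127-positive sorts, although PSMB10 turned to -0.024 with TMM factors in the CD25-positive one, with PSMB9 at 0.33 and 0.36, which in the CD25-positive sort is 389 CPM on day 20 against 308 CPM on day 3. In the same sorts 11 of 11 and 11 of 12 interferon-signal genes at 20 CPM or more were also above 0, with medians of 0.26 and 0.23. The all-gene medians there were 0.13 and 0.07, and 28 and 25 of 29 constitutive subunits were above 0 as well. The interferon-signal list had 11 of 12 genes above 0 and a median of 0.23 in CD25high CD127low cells, beside an all-gene median of 0.03. The immunoproteasome sum was not higher there, and the part of the list in these values was not tested. With TMM factors the median of all genes shifted by -0.11 in CD127-positive CD25-positive cells, the constitutive value there became 0.03 and the immunoproteasome value 0.06. In CD25high CD127low cells the median constitutive log2 ratio was -0.22 with TMM factors in place of -0.13, with 0 of 29 subunits above 0. In CFSE-positive cells it was -0.33 with TMM factors, with 3 of 29 above 0, so the 2 Treg sorts shared the direction and stood closer together.

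CD25high CD127low cells had slightly more constitutive proteasome RNA than CD127-positive CD25-negative cells, by a log2 ratio of 0.12 on day 20 and 0.36 on day 3, with 24 and 29 of 29 subunits above 0. The immunoproteasome sums differed by 0.01 on day 20 and 0.30 on day 3, and with TMM factors the day 20 value turned to -0.06 while 17 of 29 constitutive subunits were above 0. No member passed 1.5-fold in either direction, against 4.81% of genes higher and 1.22% lower on day 20 and 3.18% and 5.35% on day 3. Higher on both days were 35 members, and by the smaller of the day values the first 6 were PSMD12 (0.24 on day 20, 0.34 on day 3), PSMA5 (0.21 and 0.37), PSMB10 (0.20 and 0.26), PSMA2 (0.20 and 0.48), PSMA7 (0.19 and 0.38) and PSMA1 (0.17 and 0.39), 4 of them alpha subunits of the core. Sorted on CD25 alone among CD127-positive cells, CD25-positive cells exceeded CD25-negative cells by 0.16 on day 20 and 0.11 on day 3 for the constitutive and by 0.10 and 0.15 for the immunoproteasome sum, all 5 immunoproteasome genes being above 0 on both days. PSMD9, PSMA7, PSMA2, PSMB4, PSMA1 and PSMB6 came first by the same ranking, PSMD9 with 0.24 and 0.32, and again no member passed 1.5-fold, against 0.992% and 0.905% of genes higher and 2.33% and 2.15% lower on day 20 and day 3.

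The CD25high CD127low sort was a mixture by the authors' classes, and the contrast with transferred cells changed when it was made within classes. On day 20 it held 938 cells of the class endoTreg and 1356 of the class Tconv, and on day 3 1301 and 2037. Within that library, endoTreg cells had a constitutive sum of 3660 CPM against 2886 CPM in Tconv cells on day 20 (log2 ratio 0.34) and 4058 against 3071 CPM on day 3 (0.40), with immunoproteasome ratios of 0.19 and 0.23 and 1 member at least 1.5-fold higher on each day (PSMD12 on day 20, PSMD8 on day 3) and 0 lower. The background was 5.18% of genes higher and 1.56% lower on day 20, and 5.25% and 1.79% on day 3. The few endoTreg cells of the CD127-positive CD25-positive library gave the same direction, 0.59 in 293 cells on day 20 (11 of 42 members higher and 0 lower, against 18.4% and 3.38% of genes) and 0.46 in 272 cells on day 3 (6 of 42 and 0, against 8.84% and 2.28%). Of 8 dividing-cell genes, 5 on day 20 and 4 on day 3 reached 20 CPM in either class. PCNA, TUBA1B and STMN1 reached it in both classes and were at least 1.5-fold higher in the endoTreg cells on both days. PCNA was at 132 against 36.2 CPM in Tconv cells on day 20 and at 106 against 29.7 CPM on day 3. Their part in the result was not tested. The remaining genes passed that filter through the endoTreg cells alone, so their direction was set by the filter. One of them was MKI67 on day 20, at 52.7 against 2.35 CPM in Tconv cells. Set against endoTreg cells of the CD25high CD127low library, transTreg cells of the CFSE-positive library had a constitutive sum of 3512 against 3660 CPM on day 20 (log2 ratio -0.06, where the whole sorts gave 0.12) and 5023 against 4058 CPM on day 3 (0.31). The all-gene median in this comparison was -0.03 on day 20 and 0.29 on day 3, which is most of the day 3 value. The immunoproteasome sum was then lower in the transferred cells on both days, with 1713 CPM in transTreg against 1989 CPM in endoTreg cells on day 20 (-0.22), and 1902 against 2088 CPM on day 3 (-0.13). PSMB10 was the only member past 1.5-fold, at 59.9 against 99.8 CPM on day 20, where 5.74% of genes were lower and 2.87% higher. On day 3 no member passed it, against 15.4% of genes higher and 5.14% lower.

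Within both kinds of Treg the effector cells had more proteasome RNA by CPM than the naive cells. The finer names, like the clusters, were made by the authors from these same cells, so these values are a description. The flag of genes used for that ordering was carried by 9 of the 45 members, against 18.6% of all genes. Among the 9 were 4 of the 5 immunoproteasome genes. Within the CD25high CD127low library, cells named endo_Effector_Tregs had 4495 CPM of constitutive and 2348 CPM of immunoproteasome RNA on day 20, against 2684 and 1538 CPM in endo_Naive_Tregs. On day 3 they had 5666 and 2652 CPM, against 3033 and 1722 CPM. The log2 ratios on day 20 were 0.74 for the constitutive and 0.61 for the immunoproteasome sum, beside an all-gene median of 0.37. On day 3 they were 0.90 and 0.62, beside 0.43. The counts at least 1.5-fold higher were 26 of 42 on day 20, against 33% of genes, and 29 of 42 on day 3, against 36.2%, and 0 members were lower on either day, against 4.38% and 4.52%. PSMB9 differed most among the immunoproteasome genes. On day 20 it had 549 CPM in effector against 249 CPM in naive cells, and on day 3 604 against 295 CPM. PSME1 differed least, with 909 against 765 CPM and then 919 against 829 CPM. Ribosomal protein genes took 29.1% of UMIs in the effector against 39.9% in the naive cells on day 20 and 27.4% against 40.6% on day 3, and PCNA was at 68.2 against 18.4 CPM and 94.4 against 32.2 CPM. Their part in the result was not tested.

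By CPM, transferred effector cells were close to endogenous effector cells in constitutive proteasome RNA and lower in most immunoproteasome genes. In the CFSE-positive library of day 3, the constitutive sum was 5883 CPM in transferred_Effector_Tregs (1124 cells), 4727 CPM in transferred_inTransition (2687 cells) and 3770 CPM in transferred_Naive_Tregs (123 cells). The immunoproteasome sum was 2064, 1836 and 1671 CPM in the same order, a much flatter course, and their ratio was 0.35, 0.39 and 0.44. Effector over naive cells had 18 of 43 members at least 1.5-fold higher, and 0 lower, against 33.1% and 4.3% of genes. The log2 ratio was 0.64 for the constitutive and 0.31 for the immunoproteasome sum. The all-gene median was 0.39, so the immunoproteasome sum lay below the bulk of the genes. Effector over inTransition cells had 1 higher (PSMC2) and 0 lower, against 2.61% and 0.14%. Compared with endo_Effector_Tregs of the same day, transferred_Effector_Tregs had 5883 against 5666 CPM of constitutive RNA (log2 ratio 0.05) and 2064 against 2652 CPM of immunoproteasome RNA (-0.36), which is a log2 ratio of ratios of -0.42 (-0.48 to -0.35). The all-gene median was 0.21 in this comparison, so both sums lay below the bulk of the genes. By gene this was 624 against 919 CPM for PSME1, 233 against 339 for PSME2, 524 against 681 for PSMB8 and 68.7 against 109 for PSMB10, while PSMB9 stood at 614 against 604 CPM. PSMB10 was the only one of the 43 members tested that was 1.5-fold lower and PSME4 the only one higher, against 7.82% of genes lower and 14.7% higher. MX1, ISG15 and IFI6, genes induced by interferon, were also lower there, MX1 at 7.27 against 58.3 CPM and ISG15 at 49.4 against 145 CPM. Ribosomal protein genes took 24.8% against 27.4% of UMIs. The part of either in the result was not tested.

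On day 20 most transferred cells carried the name transferred_Naive_Tregs. The 985 such cells of the CFSE-positive library had 3489 CPM of constitutive RNA against 2684 CPM in endo_Naive_Tregs (log2 ratio 0.38), and 1680 against 1538 CPM of immunoproteasome RNA (0.13), with a log2 ratio of ratios of -0.25 (-0.35 to -0.15). The all-gene median was 0.18 in this comparison, which lies between the constitutive and the immunoproteasome value. Only PSMC3 and PSME3 were 1.5-fold higher among 42 members and 0 were lower, against 13.3% and 4.62% of genes. Another 64 cells with the same finer name lay in the CD25high CD127low library of day 20. Their constitutive sum was close to that of the CFSE-positive ones, 3494 CPM, but their immunoproteasome genes took 38.7% (35.3 to 42.2) of the UMIs of both groups, against 32.5% (31.7 to 33.3) in the CFSE-positive library. MX1 was at 56.8 CPM in these 64 cells, which held only 140810 UMIs, and 14.7 CPM in the 985. ISG15 (85.2 against 59.2 CPM) and IFI6 (256 against 116 CPM) were also higher in the 64 cells. PSMB10 (35.5 against 56.9 CPM) and IRF7 (14.2 against 15.5 CPM) were not.

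Immunoproteasome and constitutive genes parted in cluster 10. These 905 cells, in the 6 libraries that held at least 50 of them, were marked by interferon-induced genes, with MX1 at 642 to 893 CPM, where 24.6 to 40.4 CPM were found in cluster 7, the largest cluster of the series, and ISG15 at 1201 to 2182 against 25.9 to 46.1 CPM. The immunoproteasome sum on day 20 was 2463 CPM in cluster 10 against 1710 in cluster 7 within CD25high CD127low cells, 2660 against 1900 CPM within CD127-positive CD25-positive cells and 2407 against 1790 CPM within CD127-positive CD25-negative cells. On day 3 it was 2606 against 1667, 2351 against 1607 and 2047 against 1541 CPM in the same order of sorts. The log2 ratios were 0.53, 0.49 and 0.43 on day 20 and 0.64, 0.55 and 0.41 on day 3. The constitutive sum did not follow, with log2 ratios between -0.04 and 0.07 in the 6 libraries, for example 3015 against 3019 CPM in CD127-positive CD25-negative cells on day 20. The ratio of immunoproteasome to constitutive UMIs was 0.74 to 0.85 in cluster 10 and 0.54 to 0.60 in cluster 7, and the immunoproteasome share of catalytic UMIs 86.2 to 90.1% against 78.7 to 83.1%.

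Within cluster 10 all 5 immunoproteasome genes were above their cluster 7 level in each of the 6 libraries. PSMB10 was at least 1.5-fold higher in all 6, at 116 to 173 CPM against 64.9 to 80.8 CPM, PSMB8 in 4 and PSMB9 in 5, and PSME2 in 3. PSME1 passed 1.5-fold in none, with log2 ratios of 0.18 to 0.43. Other members passed in both directions and in few libraries. In the CD25high CD127low library of day 20, 6 of 41 members were higher and 3 lower, against 7.42% and 10.5% of genes. On day 3 the same library had 5 of 42 higher and 1 lower, against 5.88% and 4.37%. CD127-positive CD25-positive cells had 2 of 41 higher and 0 lower on day 20, against 4.03% and 3.39%, and 5 of 42 and 4 on day 3, against 5.39% and 4.5%. CD127-positive CD25-negative cells had 3 of 41 higher and 4 lower on day 20, against 5.3% and 7.8%, and 3 of 41 and 3 on day 3, against 7.41% and 9.28%. Ribosomal protein shares were alike, 38.0 to 40.1% in cluster 10 and 37.9 to 40.2% in cluster 7. A small group of 61 cells in the day 3 CFSE-positive library, named Unk2 by the authors, was like cluster 10 in MX1 (796 CPM) and PSMB10 (146 CPM). ISG15 was above the cluster 10 range, at 3787 CPM. IFI6 was below it, at 333 against 877 to 1790 CPM. The constitutive sum was 5576 CPM against 2754 to 3148 CPM in cluster 10, and the ratio of the sums was 0.58 against 0.74 to 0.85. In these 61 cells the immunoproteasome genes took 36.5% (34.2 to 38.9) of the UMIs of both gene groups, against 27.5% (27.2 to 27.8) in the transTreg cells of that library.

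**Figure D4:**
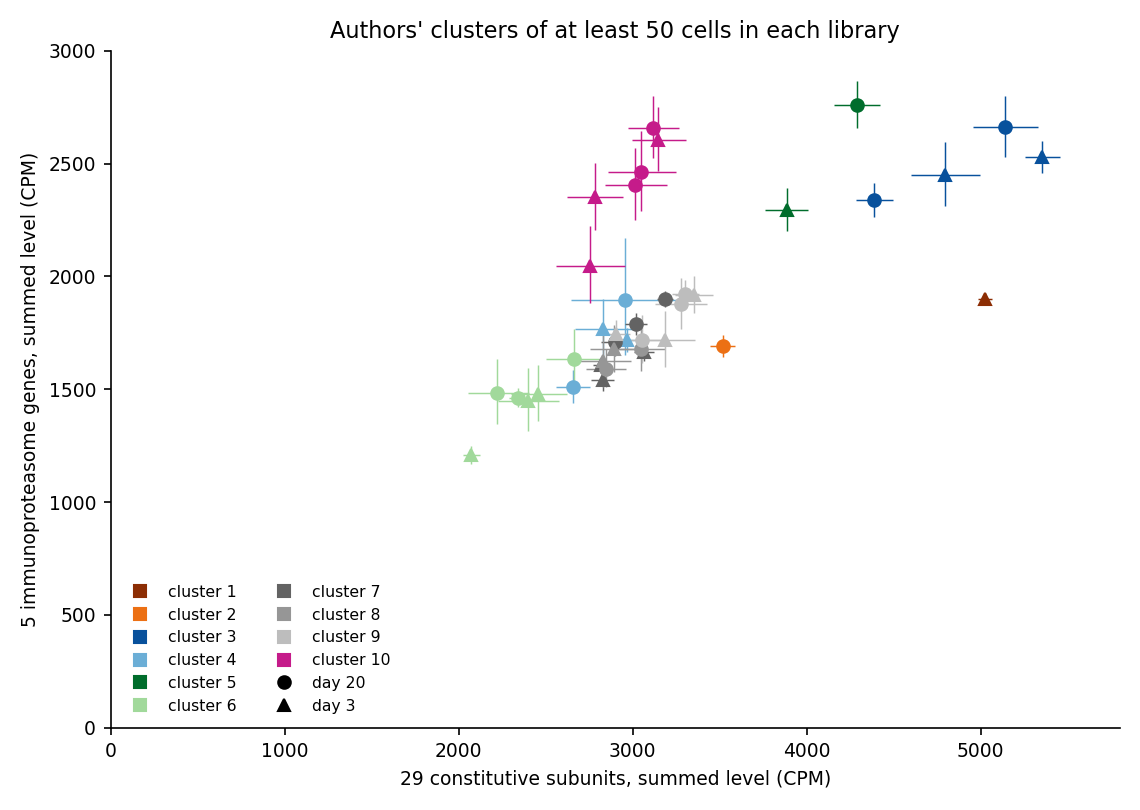
Summed level of the 5 immunoproteasome genes (CPM) against that of the 29 constitutive subunits (CPM) in each of the authors' clusters with at least 50 cells in a library, on day 20 (circles) and day 3 (triangles), with 95% counting intervals. Cluster 10 lies above the other clusters of similar constitutive level, and clusters 1 and 2, the transferred cells of day 3 and day 20, have 1902 and 1690 CPM of immunoproteasome RNA and ratios of immunoproteasome to constitutive UMIs of 0.38 and 0.48, where clusters 4 to 9 have 0.54 to 0.67 and cluster 3 has 0.47 to 0.53.

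Clusters 5 and 6 of the CD127-positive CD25-negative cells differed in both gene groups alike. Cluster 5 (612 and 549 cells on day 20 and day 3) had 4288 and 3886 CPM of constitutive RNA, against 2340 and 2073 CPM in cluster 6 (1289 and 1168 cells), and 2762 and 2294 CPM of immunoproteasome RNA against 1464 and 1208 CPM. The log2 ratios were 0.87 and 0.91 for the constitutive and 0.92 and 0.93 for the immunoproteasome sum, so the ratio of the sums differed by only 0.04 (-0.05 to 0.13) and 0.02 (-0.08 to 0.11). Counts at least 1.5-fold higher were 30 of 43 on day 20, against 42.8% of genes, and 31 of 42 on day 3, against 43.8%, with 0 lower on either day, against 7.42% and 7.23%. PSMB9 had 674 CPM in cluster 5 against 233 CPM in cluster 6 on day 20, and 527 against 173 CPM on day 3. Cluster 5 cells were shallower, with medians of 1522 and 1618 UMIs against 2372 and 2574 UMIs, and ribosomal protein genes took 28.4% and 29.1% of UMIs against 43.4% and 43.6%. Their part in the result was not tested. Clusters 8 and 9 had constitutive sums of 2828 to 3050 and 2903 to 3352 CPM and ratios of 0.55 to 0.58 and 0.54 to 0.60, close to cluster 7.

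Within a library the constitutive level varied from cell to cell somewhat more than counting alone gives, except in CFSE-positive cells on day 20. After each cell was thinned to 1000 UMIs, transferred cells had a mean of 3.54 constitutive UMIs per cell on day 20 and 5.16 on day 3, with the 10th to 90th percentiles at 1 to 6 and 2 to 8. CD25high CD127low cells had 3.20 on day 20 and 3.43 on day 3. The variance divided by the mean, which is 1 for pure counting, was 1.0 on day 20 and 1.15 on day 3 in CFSE-positive cells, against 1.28 on day 20 and 1.45 on day 3 in CD25high CD127low cells. For the immunoproteasome genes the means were 1.69 and 1.91 UMIs in CFSE-positive and 1.88 and 1.90 in CD25high CD127low cells on day 20 and day 3. Thinning left out 17 CFSE-positive cells of day 3 and 6 cells in each CD127-positive library of day 20.

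Partners of the proteasome outside the members were examined as a list of 21 genes, of which 19 were found. In transferred over CD25high CD127low cells on day 3, 3 of 15 at 20 CPM or more were at least 1.5-fold higher and 0 lower, with a median of 0.46, against 21.7% of all genes higher and an all-gene median of 0.36, so the list was near the background. They were POMP, the chaperone that completes the core (231 CPM in CFSE-positive against 137 CPM in CD25high CD127low cells), UBE2L6, the conjugating enzyme for ISG15 (333 and 172 CPM), and PAAF1, a cap chaperone. On day 20 none of 12 passed in either direction. UBE2L6 was at least 1.5-fold higher in cluster 10 than in cluster 7 in all 6 libraries. Of 11 antigen-processing genes 9 were found, and only B2M, the light chain of MHC class I, was 1.5-fold higher among 5 on day 3 (the same background of 21.7%), with 207 CPM in CFSE-positive against 107 CPM in CD25high CD127low cells. Of 16 interferon-signal genes 15 were found. On day 3, 0 of 11 were higher and 2 lower (MX1 at 19.8 against 73.6 CPM, IFI6 at 27.0 against 163 CPM), against 4.85% of all genes lower, and on day 20 the same 2 of 12 were lower, against 4.12%. In cluster 10 over cluster 7, 6 to 9 of the 15 genes were higher in each library, against 4.03 to 7.42% of all genes. IRF7, MX1, ISG15 and IFI6 were among those higher in all 6. Cluster 10 was itself described above by MX1 and ISG15, so these counts add no separate observation.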

How the data were processed

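The files held a gene-by-cell table of whole-number UMI counts that the authors deposited, with a table of cells and one of genes. The counts were made with Cell Ranger 2.1.1, per the submitters' processing notes, from 10x 3′ version 2 libraries, per the labels' protocols. Their genome build is not given in the sources used here. Per the deposited files, the authors' table of cells gives the library, the class and, for part of the cells, a finer name and a cluster. How the authors filtered cells and doublets is not given in the sources used here, and no doublet caller was run. An alternative left out 1091 doublet-like cells, which held 3 or more UMIs of markers of platelets, monocytes, B cells or red cells, or over 2 times the median UMIs of their library. CD74 and CST3 were not used for that.

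Counts were summed over the cells of a library, class, finer name or cluster with at least 50 cells and given as CPM. Genes at 20 CPM or more in either group were compared as log2(CPM + 10), and a ratio of at least 1.5-fold was counted. With 1 library per group no test was made. Intervals at the 95% level are exact Poisson for levels and Clopper-Pearson for shares, and they and any difference cover counting error only. The ratio for a pair of sums has the interval of their counts. The calls and intervals were tested on simulated data. The catalytic share uses PSMB8, PSMB9 and PSMB10 over these and PSMB5 and PSMB6, since PSMB7 is not analysed here, which departs from the plan. Cells were thinned to 1000 UMIs for values per cell.

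Named members are the 5 immunoproteasome genes, PSMB5 and PSMB6, and, per comparison and direction, up to 6 members with the largest ratios in the same direction on both days. The members and lists were chosen with earlier results of these data known. Alternatives changed the scaling (TMM with edgeR 4.0.16, median-of-ratios with DESeq2 1.42.0, both used for scaling factors only, and totals without ribosomal, mitochondrial and hemoglobin genes), the pseudocount, the fold, the filter, the cells and the members. The last scaling was added for the count of members after seeing the data. Work was done in Python 3.11.15 with numpy 2.4.6, scipy 1.17.1, pandas 2.3.3 and matplotlib 3.10.9, and in R 4.3.3.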

Additional observations from a re-analysis of the deposited data

Results flagged for a closer look

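The constitutive sum differed between days in opposite directions in the sorted populations. Its log2 ratio of day 20 over day 3 was -0.53 in CFSE-positive and -0.12 in CD25high CD127low cells, and 0.17 in CD127-positive CD25-positive and 0.13 in CD127-positive CD25-negative cells. Each population has 1 library per day, so the difference between populations was not tested.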

How the results depend on the processing

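No paired analysis was possible because the labels carry no replicate numbers. A fit of the sorts with day as a block, which takes the difference between sorts as the same on both days, was not run. Values are log2 ratios unless called counts. With TMM factors the constitutive sum on day 20 was 0.047 for CFSE-positive over CD25high CD127low cells, 0.10 over CD127-positive CD25-negative cells and 0.049 for CD25high CD127low over CD127-positive CD25-negative cells, and on day 3 0.20, 0.53 and 0.34 for the same pairs and 0.17 for CD127-positive CD25-positive over CD25-negative cells. Day 20 over day 3 it was -0.37 in CFSE-positive, -0.23 in CD25high CD127low, 0.035 in CD127-positive CD25-positive and 0.062 in CD127-positive CD25-negative cells. Median-of-ratios factors gave 0.070, 0.13 and 0.056 on day 20, 0.19, 0.54 and 0.18 on day 3 (the last for CD127-positive CD25-positive cells), and -0.35, -0.23, 0.031 and 0.064 between days. Totals without ribosomal, mitochondrial and hemoglobin genes gave 0.18 (CFSE-positive over CD127-positive CD25-negative cells) and 0.054 (CD25high CD127low over these cells) on day 20, 0.33 and 0.67 for CFSE-positive cells on day 3, and -0.38, -0.17 and 0.14 between days in the first 3 sorts.

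Equal weight for each cell gave 0.20, 0.065 and 0.11 over CD127-positive CD25-negative cells on day 20 for the other 3 sorts, and on day 3 0.57 for CFSE-positive over CD25high CD127low cells, 0.31 for CD25high CD127low and 0.075 for CD127-positive CD25-positive cells over CD25-negative cells. Thinned cells gave 0.086 and 0.11 on day 20 for CD25high CD127low and CD127-positive CD25-positive cells over CD25-negative cells, 0.59 for CFSE-positive over CD25high CD127low and 0.33 for CD25high CD127low over CD127-positive CD25-negative cells on day 3, and 0.14 between days in CD127-positive CD25-positive cells. Without doublet-like cells CFSE-positive over CD25high CD127low cells gave 0.16 on day 20 and 0.55 on day 3, and CD25high CD127low over CD127-positive CD25-negative cells 0.081 on day 20. Without PSMA7 the day 20 value of CD127-positive CD25-positive over CD25-negative cells was 0.13. Matching classes turned CFSE-positive over CD25high CD127low cells to -0.060 on day 20 and gave 0.31 on day 3, 0.32 and 0.60 for CD25high CD127low over CD127-positive CD25-negative cells on day 20 and day 3, and -0.15 between days in CD25high CD127low cells. In both pairs the CD25high CD127low group then holds endoTreg cells only.

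The log2 ratio of ratios without PSMA7 and PSME1 was -0.31 for CFSE-positive over CD25high CD127low cells and -0.29 over CD127-positive CD25-negative cells on day 3, turned to 0.015 for CD25high CD127low over CD127-positive CD25-negative cells on day 3, and was 0.19, 0.093 and 0.17 between days in CFSE-positive and the CD127-positive CD25-positive and CD25-negative cells. Thinned cells gave -0.29 on day 20 and -0.58 on day 3 for CFSE-positive over CD25high CD127low cells and -0.64 over CD127-positive CD25-negative cells on day 3, with catalytic shares of 80.3% in CD25high CD127low and 82.6% in CD127-positive CD25-negative cells on day 3. Matching classes gave -0.16 and -0.44 for CFSE-positive over CD25high CD127low and -0.19 and -0.16 for CD25high CD127low over CD127-positive CD25-negative cells on day 20 and day 3.

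Counts of members moved as follows. For CFSE-positive over CD25high CD127low cells on day 3, 7 became 14 with a pseudocount of 1 CPM, 2 with 30 CPM, 0 at 2-fold, 1 lower with TMM or median-of-ratios factors, and 0 with the reduced totals or matching classes, and on day 20 the count of 0 became 1 with the reduced totals and 1 with matching classes. Over CD127-positive CD25-negative cells on day 3, 29 became 5 at 2-fold, 6 with TMM or median-of-ratios factors and 17 with the reduced totals. Between days in CFSE-positive cells 9 became 17 and 5 with pseudocounts of 1 and 30 CPM, 0 at 2-fold, 4 with TMM or median-of-ratios factors and 5 with the reduced totals. CD25high CD127low over CD127-positive CD25-negative cells had 0, which became 1 on day 3 with a pseudocount of 1 CPM or the reduced totals, and 1 on day 20 and 10 on day 3 with matching classes. The cause of these moves was not tested beyond what each setting changes by construction. The other values, 45 constitutive sums, 80 ratios of ratios, 82 counts and 20 catalytic shares, stayed within the counting interval or 1.5 times the count. The limits are the single library per group and, for small groups of cells, few UMIs per member.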
